A study of Mus musculus with 10 samples.

Results

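Transcripts of 3 immune genes, H2-Q7, H2-M2 and Gsdmd, were followed in the testis of adult mice after prenatal exposure to testosterone. The genes were taken as the spots whose probe name begins with A_51_P and whose transcript accession is the RefSeq mRNA of one of them. They are 3 of the 45 genes that could be named on the arrays, and each was read by 1 probe printed as 10 spots, so they account for 30 of the 62976 spots of an array. H2-Q7 (probe A_51_P262079) and H2-M2 (probe A_51_P191463) lie on chromosome 17, and Gsdmd (probe A_51_P172231) lies on chromosome 15.

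All mice were males of strain C57BL/6J, aged 3 months, with no engineered allele named. Pregnant dams received daily subcutaneous injections from day 14 to day 19 post coitum, either of testosterone at 2.5 mg/kg body weight or of the solvent alone, sesame oil with benzyl benzoate. The sons of solvent-treated dams are the control group and the sons of testosterone-treated dams the testosterone group, with 5 biological replicates in each. Dam and litter were not given, so littermates may be among them and p-values measure only the spread between these samples. From each testis the RNA was split by immunoprecipitation into a bound fraction (IP, labelled with Cy5) and the supernatant left behind (Sup, labelled with Cy3), and both were hybridised to the same array. The antibody is not named in the sources used here, so the IP/Sup ratio is a fraction ratio and not the level of a particular RNA mark. No dye was swapped, so fraction and dye cannot be told apart.

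H2-Q7 and H2-M2 encode non-classical major histocompatibility complex (MHC) class I heavy chains. Class I molecules sit on the cell surface and display peptides to CD8 T cells and natural killer cells, and the non-classical members are less variable between individuals than the classical ones. H2-Q7 encodes a form of the Qa-2 antigen. Gsdmd encodes gasdermin D, the pore-forming protein that inflammatory caspases cleave to open the plasma membrane in pyroptosis, a lytic form of cell death. The testis is regarded as an immune-privileged organ, in which the Sertoli cell barrier separates meiotic and postmeiotic germ cells from circulating immune cells.

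Neither the arrays' oligonucleotide probes nor proteins could be shown from the files used here. RefSeq promoter windows (build GRCm38.p6) were matched by symbol for 2 of the 3 genes, the class I genes of chromosome 17, and are shown trimmed to the bases before the annotated gene because class I promoters carry well-known regulatory motifs. Capitals mark matches, on either strand, to GGGNNNNNCC (the kappa B motif of the class I enhancer A), GAAANNGAAA and the shorter GAANNGAAA (the interferon-stimulated response element), TGACG (part of the cyclic AMP response element) and CCAAT. The H2-Q7 window is chr17:35438905-35439139 on the plus strand, and the H2-M2 window is chr17:37483555-37483804 on the minus strand.
H2-Q7: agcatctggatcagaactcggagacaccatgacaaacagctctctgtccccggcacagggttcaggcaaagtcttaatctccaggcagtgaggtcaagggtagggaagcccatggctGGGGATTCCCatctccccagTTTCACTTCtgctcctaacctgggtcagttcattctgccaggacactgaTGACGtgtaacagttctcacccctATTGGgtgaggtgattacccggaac
H2-M2: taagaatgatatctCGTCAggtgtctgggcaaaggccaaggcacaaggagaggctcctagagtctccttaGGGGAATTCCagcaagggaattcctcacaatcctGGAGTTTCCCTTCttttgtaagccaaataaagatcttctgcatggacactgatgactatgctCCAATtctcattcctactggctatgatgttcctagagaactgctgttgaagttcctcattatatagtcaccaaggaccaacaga
The H2-Q7 window held 1 match to GGGNNNNNCC, GGGGATTCCC, which starts 118 bases before the gene, and the H2-M2 window held 2, GGGGAATTCC and GGAGTTTCCC. Of 32817 RefSeq windows cut to their first 235 bases, a stretch that holds each match given here, 43.4% hold that motif. GAAANNGAAA, present in 2.79% of windows, was in neither. GAANNGAAA, present in 5.93% of windows, matched once in each, as TTTCACTTC before H2-Q7 and as TTTCCCTTC before H2-M2, where it overlaps the second kappa B match. TGACG (16.3% of windows) matched once in each, as TGACG 49 bases before H2-Q7 and on the other strand, as CGTCA, 236 bases before H2-M2. CCAAT (32.6% of windows) matched once in each, as ATTGG 25 bases before H2-Q7 and as CCAAT 84 bases before H2-M2. Neither motif thus lay at a like position in both windows. The longest run shared by both windows was GGACACTGATGAC, 13 bases, found in 5 of 32817 uncut windows (0.0152%), both of these among them. It was picked as the longest shared run, so its rarity carries no weight. These matches describe letters only, and the arrays measured nothing at the promoters.

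Signals are given as Agilent's processed signal, a background-subtracted and dye-normalized intensity on a linear scale. For comparison between arrays, the Sup level and the IP level are log2 of that signal minus log2 of the channel's 75th percentile on the array. The IP/Sup ratio is the log2 ratio of the channels minus the array's median ratio, and abundance is log2 of the sum of both scaled channels. A value of 0 in the ratio therefore means the fraction split of the median transcript, not equal amounts of RNA. Levels of different probes are not set against each other.

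The 10 arrays shared no identical data (correlations of 0.888 to 0.976 between arrays), and at least 67.6% of the 60706 mouse probes were well above background in Sup. Testosterone replicates 4 and 5 lay alone on a slide that was scanned separately. Their 75th percentile of Sup signal was 1089 and 1087, against 1377 to 1673 on the other 8 arrays, and their share of probes above background in IP was 61.6% and 63.7%, against 71.3% to 75.6%. Control replicate 2 also stood apart. By Dixon's test it was the outlying control for 13.0% of probes in Sup, where each of the other controls was for between 0.419% and 0.695%. Results that rest on these arrays are given with and without them. Of 38 markers of testicular and immune cell types, only the germ cell gene Spats1 carried a name, and it exceeded background in Sup and IP of all 10 samples. No gene of the lists for macrophages, T cells or neutrophils (5, 3 and 3 genes) carried a name, so the part of immune cells in the values below was not tested.

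All 3 genes were measured well above background in both fractions of every sample. Spots marked as outliers by the scanner software were dropped. The spots kept, 89 of 100 of H2-Q7, 95 of 100 of H2-M2 and 93 of 100 of Gsdmd, were all above background in both channels, and none was saturated. At least 6 spots per array were left for H2-Q7 and 8 for each of the other genes. The dropped H2-Q7 spots were all on testosterone arrays, 11 of 50 against 0 of 50 on control arrays. Keeping them moved the H2-Q7 ratio difference between groups from -0.25 to -0.26.

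**Figure D1:**
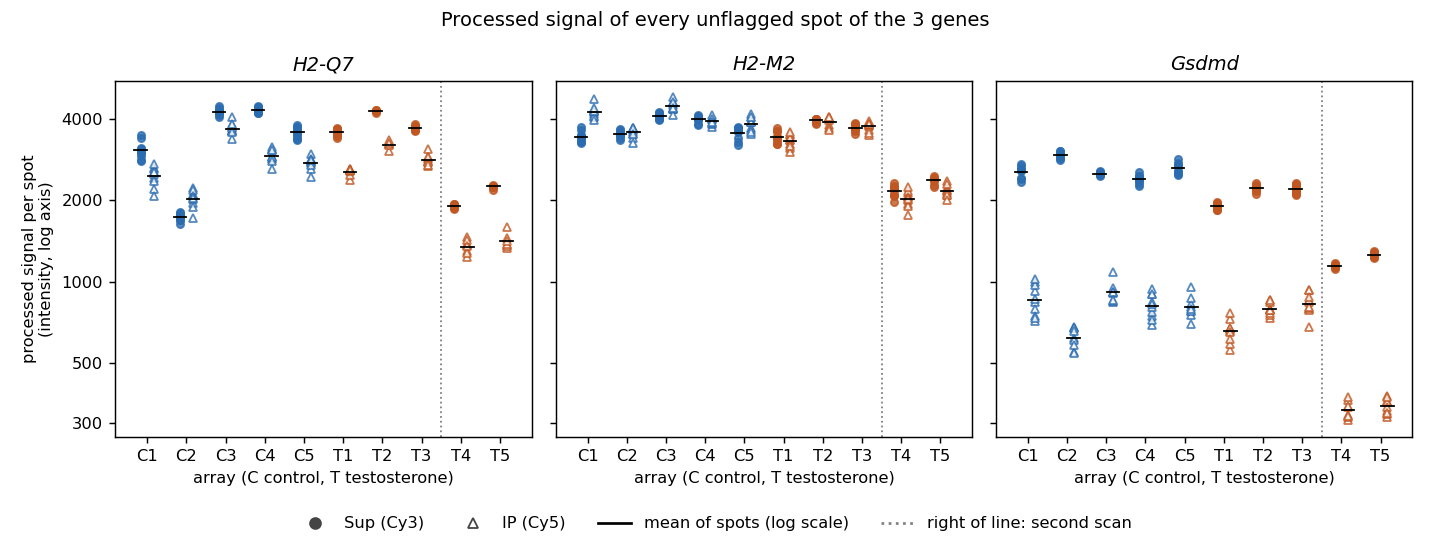
Each point is the processed signal (intensity, log axis) of one unflagged spot of H2-Q7, H2-M2 or Gsdmd, by array (C, control; T, testosterone), with filled circles for Sup, open triangles for IP and black bars for the mean of the spots. For Gsdmd the Sup spots lie above the IP spots on all 10 arrays, for H2-M2 the fractions lie together, and the second-scan arrays T4 and T5 are the dimmest testosterone arrays for each gene.

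The clearest property of the 3 genes was their IP/Sup ratio, in which fraction and dye are not separated. Gsdmd signal lay on the Sup side in every sample, H2-Q7 signal leaned to the Sup side, and H2-M2 signal divided like the median transcript. Of the 21 spike-in RNAs described below, 9 also had ratios beyond 2-fold, so a ratio alone does not show how RNA divided.

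For Gsdmd, the Sup signal in control replicates 1 to 5 was 2545, 2944, 2511, 2399 and 2637, and the IP signal in the same samples was 852, 618, 911, 810 and 803. In testosterone replicates 1 to 5 the Sup signal was 1906, 2216, 2197, 1140 and 1258, and the IP signal was 653, 793, 825, 335 and 345. IP was thus below Sup on each array, and the highest IP signal, 911, was below the lowest Sup signal, 1140. The log2 IP/Sup ratio was -1.60, -2.25, -1.39, -1.57 and -1.72 in control replicates 1 to 5 and -1.46, -1.51, -1.34, -1.79 and -1.94 in testosterone replicates 1 to 5. Over both groups the mean ratio was -1.66 ± 0.09 (SE, n = 10), or 3.15-fold more in Sup than the median transcript (95% confidence interval 2.75 to 3.61), with an adjusted p of 5.71e-10 by limma with Benjamini-Hochberg adjustment. It passed the rule for a side, an adjusted p under 0.05 and at least a 2-fold ratio, as did 21.1% of the 41359 probes tested on the Sup side, so a Sup-side call is common on these arrays. Gsdmd's ratio stood at the 10.3 percentile of all tested probes and was the 6th lowest of the 38 named genes tested.

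Gsdmd's ratio was also lower than that of each of 21 spike-in RNAs, which the labels say were added to both fractions in equal amount. The spike-ins themselves ranged from -1.56 to 1.40, and 9 of them were beyond 2-fold. RNA added in equal amount thus also gave ratios past 2-fold, and the lowest spike-in was close to Gsdmd. Over the 7 samples that remain when control replicate 2 and the second scan are left out, Gsdmd's ratio was -1.50, and with normexp background correction of the median signals it was -1.26.

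For H2-Q7, the Sup signal was 3059, 1738, 4259, 4328 and 3565 in control replicates 1 to 5 and 3571, 4283, 3704, 1904 and 2249 in testosterone replicates 1 to 5. The IP signal was 2452, 2021, 3685, 2925 and 2748 in the controls and 2553, 3216, 2825, 1347 and 1409 after testosterone. Sup exceeded IP on every array except that of control replicate 2, where the Sup signal was the lowest of the 10. The log2 ratio was -0.34, 0.22, -0.14, -0.57 and -0.38 in the controls and -0.40, -0.44, -0.31, -0.53 and -0.75 after testosterone. The mean ratio was -0.36 ± 0.08 (SE, n = 10), 1.29-fold towards Sup (95% interval 1.14 to 1.45, limma adjusted p = 0.000917), which did not reach the 2-fold rule. At any fold, 43.7% of tested probes passed on the Sup side. The ratio lay among those of the spike-ins, 10 of which were lower and 11 higher.

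H2-Q7 belongs to a cluster of near-identical class I genes of the Q region, and the RefSeq table lists the name of a neighbouring copy among its synonyms. Signal of its probe may come from more than one of them, which could not be tested here without the probe's sequence.

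For H2-M2, the Sup signal was 3441, 3507, 4112, 3983 and 3553 in control replicates 1 to 5 and 3428, 3962, 3711, 2160 and 2373 in testosterone replicates 1 to 5. The IP signal was 4248, 3564, 4469, 3931 and 3839 in the controls and 3314, 3906, 3754, 2023 and 2168 after testosterone. The channels differed little on any array, with an IP over Sup signal between 0.914 and 1.23. The log2 ratio was 0.29, 0.03, 0.19, -0.02 and 0.11 in the controls and 0.04, -0.05, 0.09, -0.12 and -0.21 after testosterone. Its mean, 0.03 ± 0.06 (SE, n = 10, 95% interval -0.10 to 0.17), was not distinguishable from 0 (limma adjusted p = 0.618). H2-M2 thus had no side. The value depends on where 0 is set: scaled on the spike-ins it was 0.20 (adjusted p = 0.0284) and with normexp correction -0.13.

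Within the control group the ratio had an SD of 0.32 for Gsdmd, 0.30 for H2-Q7 and 0.12 for H2-M2 (n = 5), and of 0.13, 0.17 and 0.13 without control replicate 2. Within the testosterone group the SDs were 0.25, 0.17 and 0.12. Gsdmd had the noisiest spots in IP, its dimmest measurement, with a mean spot SD of 0.127 against 0.0434 in Sup.

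**Figure D2:**
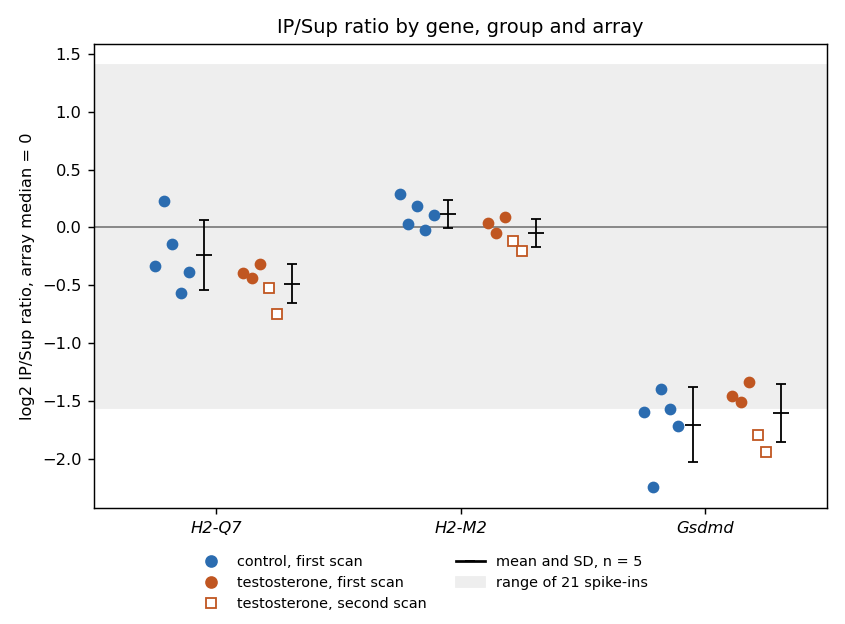
Log2 IP/Sup ratio (array median = 0) of H2-Q7, H2-M2 and Gsdmd, one point per array, with the mean and SD of each group (n = 5), open squares for the second scan and a grey band for the range of 21 spike-ins. Gsdmd centres at -1.66 in the 10 samples, H2-Q7 at -0.36 and H2-M2 at 0.03, and the groups overlap for each gene.

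Whether prenatal testosterone altered the fraction split was asked by comparing the ratio between groups. None of the 3 genes passed the test, and 0% of the 41359 probes tested did, with the smallest adjusted p at 0.572 and 6.04% of probes at an unadjusted p under 0.05. The control mean of the H2-Q7 ratio was -0.24 ± 0.30 and the testosterone mean -0.49 ± 0.17 (SD, n = 5 each). The groups differed by -0.25 ± 0.16 (SE, 95% interval -0.60 to 0.11, limma adjusted p = 0.794). Every testosterone sample lay below the mean of the controls, but the groups overlapped. Without control replicate 2 the control mean was -0.36 ± 0.17 (SD, n = 4), and testosterone replicate 3, at -0.31, lay above it. The H2-M2 ratio was 0.12 ± 0.12 in controls and -0.05 ± 0.12 after testosterone, a difference of -0.17 ± 0.13 (interval -0.44 to 0.10, limma adjusted p = 0.808). All 5 H2-M2 values after testosterone were below the control mean, and 3 of them were below every control. Both samples of the second scan were among these, and in the first scan 1 of 3 was below every control. Across all tested probes 53.4% had a lower mean after testosterone, with a median difference of -0.02. The share of all probes with such counts of samples below the controls was not computed, so these counts set neither gene apart.

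For Gsdmd the ratio was -1.71 ± 0.32 in controls and -1.61 ± 0.25 after testosterone, a difference of 0.10 ± 0.18 (interval -0.29 to 0.49, limma adjusted p = 0.909). The most extreme value was that of control replicate 2, -2.25, and without it the difference was -0.04. Within the first scan the difference was 0.27, and within slide 2, which held control replicate 5 and testosterone replicates 1 to 3, it was 0.29. For H2-Q7 the differences were -0.13 without control replicate 2, -0.14 within the first scan and -0.0029 within slide 2. For H2-M2 they were -0.09 within the first scan and -0.08 within slide 2.

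Gsdmd was the gene of the 3 whose level separated the groups, in Sup and in abundance, though neither difference passed the test over all probes. Its log2 Sup level was 0.64, 0.83, 0.59, 0.52 and 0.72 in control replicates 1 to 5 and 0.47, 0.45, 0.45, 0.07 and 0.21 in testosterone replicates 1 to 5. Each testosterone sample was below the lowest control, and the 2 lowest were those of the second scan. The group means were 0.66 ± 0.12 and 0.33 ± 0.18 (SD, n = 5 each), a difference of -0.33 ± 0.12 (SE, 95% interval -0.58 to -0.08), or 1.26-fold lower (1.05 to 1.50). The unadjusted p from limma was 0.0151 and the adjusted p 0.443. In Sup 0% of 44627 probes passed the adjusted threshold, 11.2% had an unadjusted p under 0.05, 7.65% had one with a lower value after testosterone, and in 1.8% of the 42602 with a value on every array the groups did not overlap with testosterone lower. The difference is thus not established. If it is real, whether fewer cells carried Gsdmd RNA or each cell carried less cannot be told apart in whole testis.

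Gsdmd abundance, which weights both fractions alike, was 1.06, 1.10, 1.03, 0.94 and 1.10 in the controls and 0.89, 0.89, 0.91, 0.44 and 0.56 after testosterone, again without overlap. The means were 1.04 ± 0.07 and 0.74 ± 0.22 (SD, n = 5 each). The difference of -0.31 ± 0.11 (SE, interval -0.54 to -0.07), 1.24-fold lower (1.05 to 1.46), had an unadjusted p of 0.0148 and an adjusted p of 0.290 by limma. In abundance 0.0063% of 47582 probes passed the adjusted threshold, 11.3% had an unadjusted p under 0.05 with a lower value after testosterone, and in 2.79% of the 45555 with a value on every array the groups did not overlap in that direction. All probes together were shifted by a median of -0.05 in abundance and in Sup.

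In the IP fraction the Gsdmd groups overlapped. Its log2 IP level was -0.94, -1.44, -0.90, -1.06 and -1.01 in the controls and -1.09, -1.05, -0.98, -1.70 and -1.65 after testosterone. The testosterone samples of the first scan lay within the control range, and those of the second scan lay below it. That range rests on control replicate 2. Without it the lowest control was -1.06, and testosterone replicate 1 was also below the controls. The difference was -0.22 ± 0.17 (SE, interval -0.59 to 0.15, limma adjusted p = 0.520), and within the first scan it was 0.03. Without control replicate 2 it was -0.32 (limma adjusted p = 0.485), and the groups still overlapped. In IP 0.00226% of 44318 probes passed the adjusted threshold.

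The size of the Gsdmd difference depended on the second scan. Within the first scan the Sup difference was -0.20 (limma adjusted p = 0.970) and the abundance difference -0.15 (limma adjusted p = 0.657). The 3 testosterone samples of that scan still lay below every control in both, as 3.22% of probes did in Sup and 5.59% in abundance. Within slide 2 the differences were -0.27 and -0.21, and with control replicate 2 left out beside the second scan they were -0.16 and -0.14. Over 25 alternatives the Sup difference stayed negative, between -0.37 and -0.16, and the abundance difference between -0.35 and -0.14. The unadjusted p was no longer under 0.05 in any alternative that set aside or modelled the slide or scan. By limma it was 0.159 in Sup and 0.132 in abundance with slide as a block, 0.0789 and 0.0768 with scan as a block, and 0.116 and 0.110 within slide 2. It was 0.0901 and 0.0809 within the first scan, and 0.0982 and 0.0914 with control replicate 2 also left out. With spike-in scaling it was 0.154 and 0.0669, and in the other 19 of 25 alternatives it stayed under 0.05. Slide as a block gives the estimate of slide 2, where control replicate 5 is the only control. Scan as a block likewise gives that of the first scan. The alternatives on slide and scan thus overlap and compare fewer samples, so they are not separate results. In the raw median spot intensities, before any correction, the Sup groups of Gsdmd overlapped, at 312 to 455 in controls and 234.5 to 342.5 after testosterone.

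**Figure D3:**
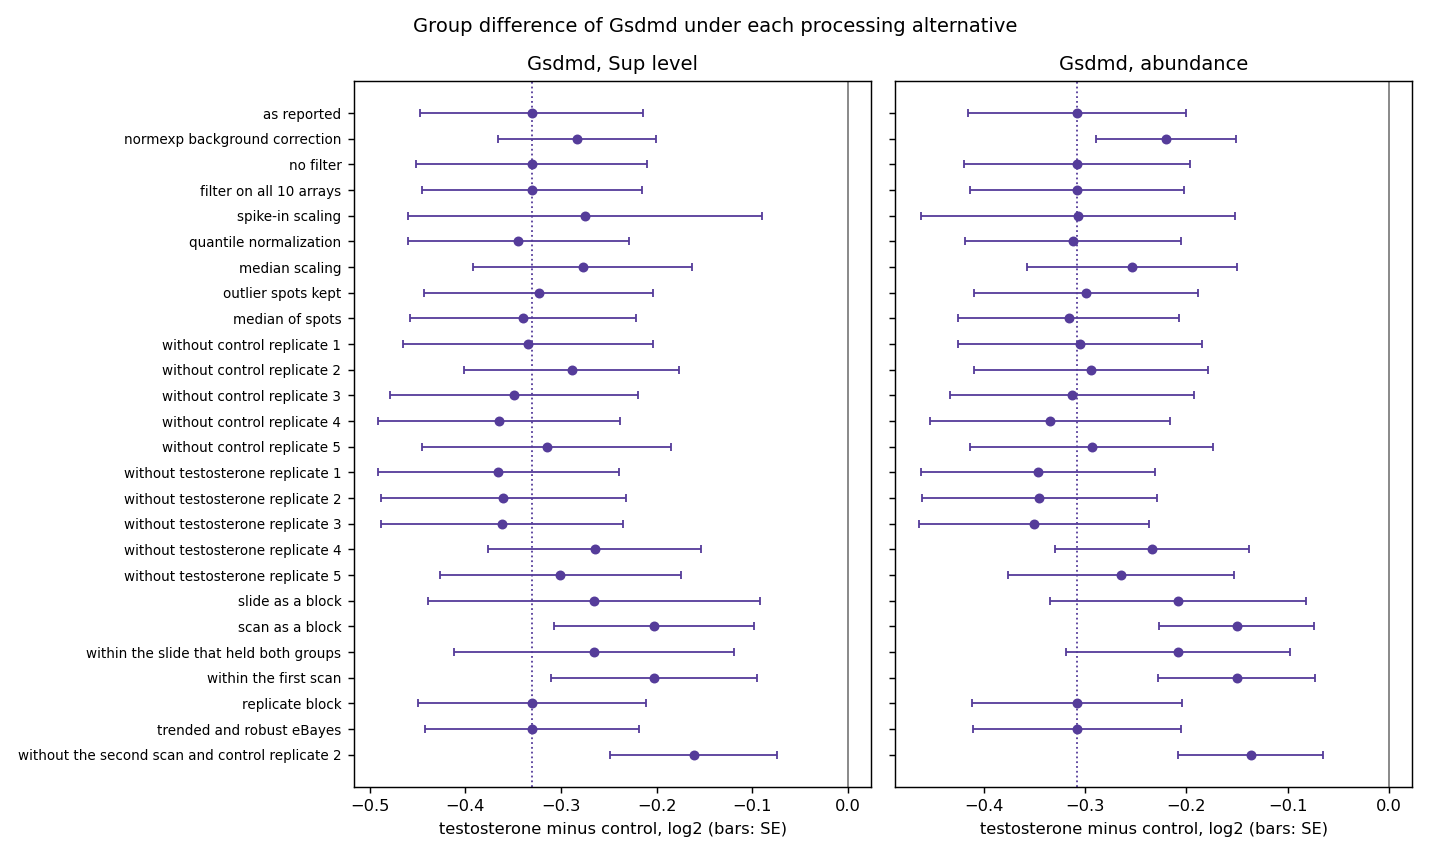
Difference between groups (testosterone minus control, log2) of Gsdmd in the Sup level and in abundance, as reported and under each alternative, with bars for the SE and a dotted line at the reported value. Each estimate lies below 0, and those nearest 0, -0.16 in Sup and -0.14 in abundance, are those without control replicate 2 and the second scan.

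The H2-Q7 groups overlapped in Sup, IP and abundance. Its log2 Sup level was 0.91, 0.07, 1.35, 1.37 and 1.16 in the controls and 1.37, 1.40, 1.21, 0.81 and 1.05 after testosterone, so that control replicate 2 was lowest. The means were 0.97 ± 0.54 and 1.17 ± 0.25 (SD, n = 5 each), a difference of 0.20 ± 0.23 (SE, interval -0.31 to 0.70, limma adjusted p = 0.676). Without control replicate 2 the control mean was 1.20 ± 0.22 (SD, n = 4) and the difference -0.03. The log2 IP level was 0.58, 0.27, 1.11, 0.79 and 0.77 in the controls and 0.87, 0.97, 0.79, 0.31 and 0.38 after testosterone, a difference of -0.04 ± 0.18 (interval -0.43 to 0.35, limma adjusted p = 0.926) that was 0.17 within the first scan. Here control replicate 2 and both second-scan samples were low. Abundance was 1.75, 1.17, 2.24, 2.11 and 1.97 in the controls and 2.15, 2.20, 2.02, 1.58 and 1.75 after testosterone. Its difference of 0.09 ± 0.19 (interval -0.34 to 0.51, limma adjusted p = 0.809) became -0.08 without control replicate 2 and 0.27 within the first scan.

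The H2-M2 groups overlapped as well. Its log2 Sup level was 1.08, 1.08, 1.30, 1.25 and 1.15 in the controls and 1.32, 1.29, 1.21, 0.99 and 1.13 after testosterone, with means of 1.17 ± 0.10 and 1.19 ± 0.13 (SD, n = 5 each). The difference of 0.01 ± 0.10 (SE, interval -0.22 to 0.24, limma adjusted p = 0.953) was smaller than the spread of either group. The log2 IP level was 1.37, 1.09, 1.39, 1.22 and 1.25 in the controls and 1.25, 1.25, 1.20, 0.90 and 1.00 after testosterone. All 5 testosterone samples were below the control mean of 1.26 in IP, by small amounts in the first scan. By group means 55.8% of all tested probes were lower after testosterone in IP, and the share with all 5 samples below was not computed. The IP difference was -0.14 ± 0.11 (interval -0.38 to 0.09, limma adjusted p = 0.509), and -0.03 within the first scan. Abundance was 2.23, 2.08, 2.35, 2.24 and 2.20 in the controls and 2.28, 2.27, 2.21, 1.94 and 2.06 after testosterone, and differed by -0.07 ± 0.09 (interval -0.27 to 0.13, limma adjusted p = 0.689), or 0.0324 within the first scan.

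**Figure D4:**
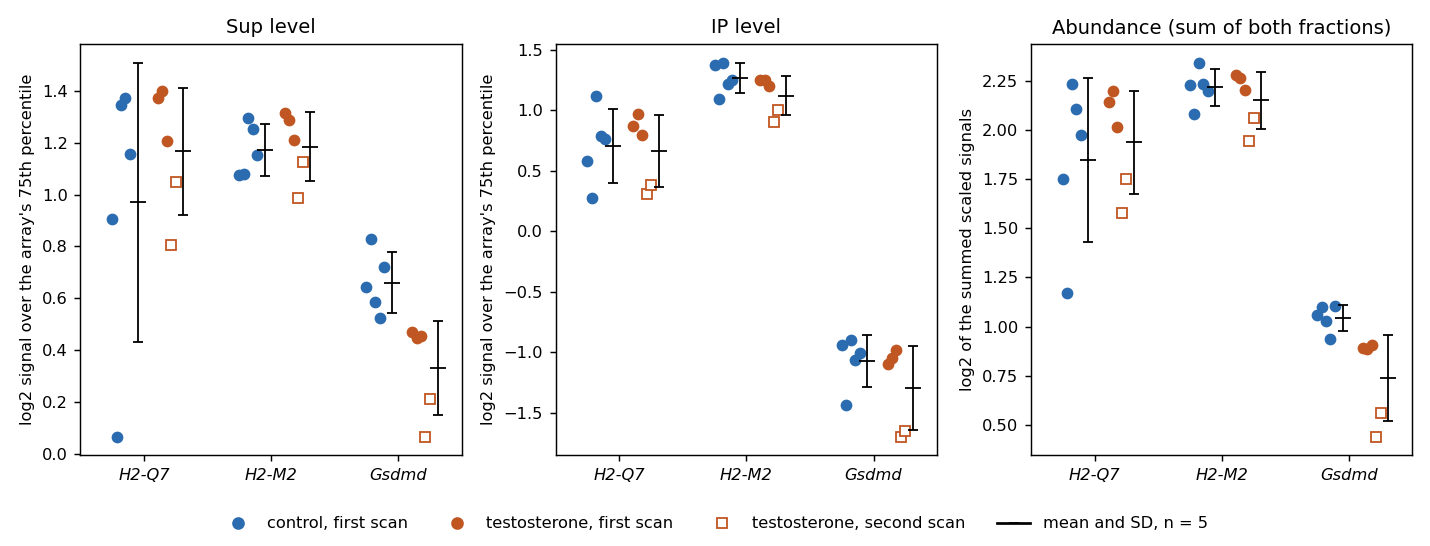
Sup level, IP level and abundance (log2, scaled on each array's 75th percentile) of the 3 genes, one point per array, with the mean and SD of each group (n = 5) and open squares for the second scan. The testosterone points of Gsdmd lie below all control points in Sup and abundance but not in IP, and the lowest H2-Q7 point in Sup, 0.07, is control replicate 2.

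One feature was common to the genes. In each of the 12 combinations of a gene with the ratio, Sup level, IP level or abundance, the 2 second-scan arrays gave the lowest values of the testosterone group. That held for 33.2% of probes in the ratio, 28.2% in Sup, 24.7% in IP and 28.6% in abundance. The 12 combinations are not separate observations. Abundance sums Sup and IP, so it must be lowest where both of them are, and the ratio uses the same 2 channels. The share of probes for which it held in every measure was not computed. The scan holds testosterone samples only, so for those arrays scan, slide and sample cannot be told apart, and their part in the group differences is shown by the first-scan values above.

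Among 37 other named genes with a tested ratio, likeness was measured as the root mean square difference over the 10 arrays. The ratio of Gsdmd was nearest to those of Gamt, a creatine-synthesis enzyme (0.245), and Gsta4, a glutathione S-transferase (0.331). H2-Q7 was nearest to Alkbh4 (0.310) and Lhx1 (0.363), and H2-M2 to Anxa8 (0.190) and Hyal3 (0.191). The farthest from each of the 3 was Chgb, at 5.19 to 6.89. In abundance centred on each probe's own mean, Gsdmd followed Alkbh4 (0.103) and Rab5a (0.108), H2-Q7 followed Tm9sf1 (0.181) and Nup50 (0.235), and H2-M2 followed Lhfp (0.0900) and Carhsp1 (0.103). Between the 3 genes, centred abundance lay 0.159 apart for H2-M2 and Gsdmd, 0.240 for H2-Q7 and H2-M2, and 0.357 for H2-Q7 and Gsdmd. Without control replicate 2 these were 0.1276, 0.1285 and 0.186. The order was the same, but most of the gap between the first 2 pairs rests on that array. Some neighbours also depended on control replicate 2. Without it the nearest ratio was that of Actb for Gsdmd (0.192), but still that of Alkbh4 for H2-Q7 (0.168) and of Anxa8 for H2-M2 (0.144). The nearest centred abundance was then that of Hspb7 for Gsdmd (0.0893), Carhsp1 for H2-Q7 (0.108) and Rab5a for H2-M2 (0.0803). These distances come from the same 10 arrays and share their scaling.

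Other genes of both pathways could not be read beside the 3. Of 21 genes of MHC class I presentation and 12 of pyroptosis, 0 carried a name on the probes used here, so no companion gene of antigen presentation or of the inflammasome is described. Of the 40 named genes tested for abundance, 28 had a lower value and 12 a higher one after testosterone, with a median difference of -0.08. Counted from the lowest of these 40 differences, Gsdmd was the 6th, H2-M2 the 22nd and H2-Q7 the 36th.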

How the data were processed

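Per the submitters' processing notes, spots were read with Agilent Feature Extraction 11.0.1.1. The deposited processed signal is a linear intensity that the authors' software had corrected for background, spatial trend and dye bias, per the file headers. Median spot intensities, also deposited, are uncorrected. Deposited flags (0 or 1) mark spots above background, saturated or outlying. The authors' value table holds log2 values of Cy5 only, with constants of unknown origin per array (column medians 1.47, 2.19, 2.22, 1.89 and 2.25 for controls, 2.03, 1.88, 1.26, 1.98 and 1.38 for testosterone) and has none of the 3 genes, so it served only as an alternative for counts in IP.

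After dropping control and outlier spots, the spots of each probe were averaged on the log2 scale. Probes well above background on at least 5 of 10 arrays were tested with limma 3.58.1 in R 4.3.3 (lmFit, eBayes, Benjamini-Hochberg over all tested probes, threshold 0.05). The fits were tested on simulated data, drawn with independent normal noise at each probe's own within-group SD. Of 100 probes changed 2-fold and 100 changed 1.5-fold, 41 and 5 were recovered in the ratio (39337 probes), 59 and 25 in Sup (42602), 66 and 22 in IP (42295), and 78 and 39 in abundance (45555). False calls were 1, 3, 7 and 4, in the same order. No effect of slide, scan or array was simulated, so these counts check the fits and do not give the power of the present arrays. The number of arrays limits the precision. Probes were named by accession through RefSeq (GRCm38.p6, 45 of 50 matched), and only promoter coordinates are given. Neighbours named were the 2 nearest in the ratio and in centred abundance, repeated without control replicate 2 after seeing the data. The genes and gene lists were chosen with earlier results of these data known. Alternatives covered background correction, filters, scaling, spots, slide, scan, replicate block and single arrays. Figures were drawn with matplotlib 3.10.9.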

Additional observations from a re-analysis of the deposited data

How the results depend on the processing

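No difference of the 3 genes between groups passed the adjusted threshold under any of the alternatives, and Gsdmd and H2-Q7 stayed on the Sup side of 0. Reversals of sign concerned small differences. The H2-M2 Sup difference was -0.0061 with normexp and -0.0186 with quantile normalization, and the mean H2-M2 ratio was -0.13 with normexp. The H2-Q7 IP difference was 0.0196 with median scaling, 0.11 with slide as a block and within slide 2, 0.17 with scan as a block and within the first scan, and 0.0651 with control replicate 2 left out beside the second scan, an alternative chosen after seeing the data. The H2-M2 abundance difference was 0.0513 with slide as a block and within slide 2, and 0.0324 with scan as a block and within the first scan, where the Gsdmd IP difference was 0.0286. The cause was not tested.

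Leaving out 1 sample at a time gave -0.0383 to 0.18 for the Gsdmd ratio difference, -0.0295 to 0.30 for H2-Q7 in Sup, -0.0192 to 0.0627 for H2-M2 in Sup (0.0755 without control replicate 2 and the second scan), -0.15 to 0.06 for H2-Q7 in IP and -0.0805 to 0.19 for H2-Q7 in abundance. The Gsdmd differences kept their sign, at -0.37 to -0.26 in Sup and -0.35 to -0.23 in abundance. Counts of called probes were 0 to 2 in IP and 0 to 2 in abundance.

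Calls over all probes moved as follows. Against 0, 16795 probes were called and 10281 with normexp. In IP, 1 was called, and 3 with no filter, with a filter on all 10 arrays and with trended, robust limma. The count was 0 by limma with spike-in scaling (7121 at an unadjusted p under 0.05) and with scan as a block (3844). It was also 0 with both the second scan and control replicate 2 left out (4115). The authors' value table gave 471, from 44264 unfiltered rows with its constants of unknown origin per array left in, so that count is not comparable. In abundance, 3 were called, 6 with spike-in scaling, 1 with no filter, with a filter on all 10 arrays, with quantile normalization and within the first scan, and 0 by limma when scan was a block (3791 at an unadjusted p under 0.05) or both that scan and control replicate 2 were left out (4432). In Sup, 0 were called by limma (4995 at an unadjusted p under 0.05), and 2 with slide as a block and within slide 2.

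Same-numbered samples did not clearly deviate together (correlations from -0.19 to 0.21 over the 4 measures). No pairing by number was seen, though so few samples cannot exclude it. With the replicate block, 0 probes were called in IP by limma (6698 at an unadjusted p under 0.05) and 1 in abundance, and Gsdmd differed by -0.33 in Sup (adjusted p = 0.358) and -0.31 in abundance (adjusted p = 0.227). The block changed no other call.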
